A study of Mus musculus with 16 samples.

Results

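The first step out of the naive state was measured in wild-type (WT) mouse embryonic stem cells as the difference between day 2 and day 0 of differentiation toward epiblast-like cells. It compares 4 of the 16 libraries of the series, the 2 titled WT day 2 and the 2 titled WT day 0, over every gene that passed a filter on low counts, 18489 genes. The spread behind each SE and p-value was estimated from all 16 libraries, and a fit of the 4 libraries alone called 8885 genes, against the 11373 reported here. All libraries are bulk messenger RNA of the line E14 (ES-E14TG2a), made with a stranded protocol, and the series adds days 4 and 7 and a second genotype written TKO, which the labels do not expand. The WT day 2 cells had been split onto fibronectin and then moved to N2B27 medium with 12 ng/ml Fgf2, 20 ng/ml Activin A and knockout serum. The WT day 0 cells had grown on fibronectin in N2B27 medium with LIF at 1000 U/ml, a Gsk3 inhibitor at 3 µM, a MEK inhibitor at 1 µM and vitamin C at 100 µg/ml, which both genotypes share. Time, medium and replating changed together in this design, so their parts cannot be told apart. The TKO libraries of days 2 and 0, which went through the same media, are compared only where the step of WT cells was set against the step of TKO cells.

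Embryonic stem cells in this day 0 medium stand for the epiblast of the blastocyst before implantation. The MEK inhibitor blocks ERK signalling downstream of Fgf, the Gsk3 inhibitor stabilises β-catenin and so mimics Wnt, and LIF acts through gp130 and STAT3. Removal of these agents lets the network of Esrrb, Klf4, Tfcp2l1 and Nanog come down, and Fgf and Activin carry the cells into a formative state like the epiblast just after implantation, marked by Fgf5, Otx2 and Pou3f1 and by the de novo DNA methyltransferases.

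WT day 2 libraries held 52595303 and 43053715 estimated counts, and WT day 0 libraries held 39799498 and 40421571. Levels are CPM, counts scaled to a common library size by TMM and given per 1000000, with the SD over 2 libraries after ±, and a fold change is log2 of day 2 over day 0 with its SE after ±. A gene was called at an adjusted p under 0.05 in edgeR's quasi-likelihood test with Benjamini-Hochberg adjustment over all genes tested. The labels call the libraries biological replicates without saying that they came from separate cultures, so the p-values measure only the spread between these libraries. Among genes of at least 5 CPM, 18 of 10605 differed over 2-fold between the WT day 2 libraries and 123 of 10687 between the WT day 0 libraries, of which 113 were lower in replicate 1. The replicate difference moved with the effective length of the transcripts, and its part in single results was not tested. In the shortest of 6 length classes (median 784 bases) replicate 1 lay 0.26 below replicate 2 on day 2 and 0.39 above it on day 0 (median log2), and in the longest (5208 bases) 0.18 above it on day 2 and 0.35 below it on day 0. The median fold change of day 2 over day 0 stayed between -0.04 and 0.11 over these classes.

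Of the 18489 genes, 11373 were called (61.5%), 6079 higher on day 2 (32.9%) and 5294 lower on day 2 (28.6%). By 2-fold or more, 3148 genes were higher (17%) and 2809 lower (15.2%), and by 8-fold or more 1113 were higher and 689 lower. The median fold change of all genes was 0.06. Both day 2 libraries lay above both day 0 libraries in 7346 genes (39.7%) and below them in 6385 (34.5%). In 239 of the genes called higher no count fell in either day 0 library, and in 70 of those called lower no count fell in either day 2 library. With so many genes called, the count of a gene list is to be read against these shares. Of 34 lists, 5 had shares higher and lower that both lay within 10 percentage points of those of all genes, and their counts are no result about them. These were the lists of BMP, interferon response, one-carbon metabolism, primitive streak and trophoblast genes. A list outside this band can still lie only a few genes from these shares, since 1 of 5 keratins tested is already 20%. The plot of all genes places the markers followed here against this background.

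**Figure D1:**
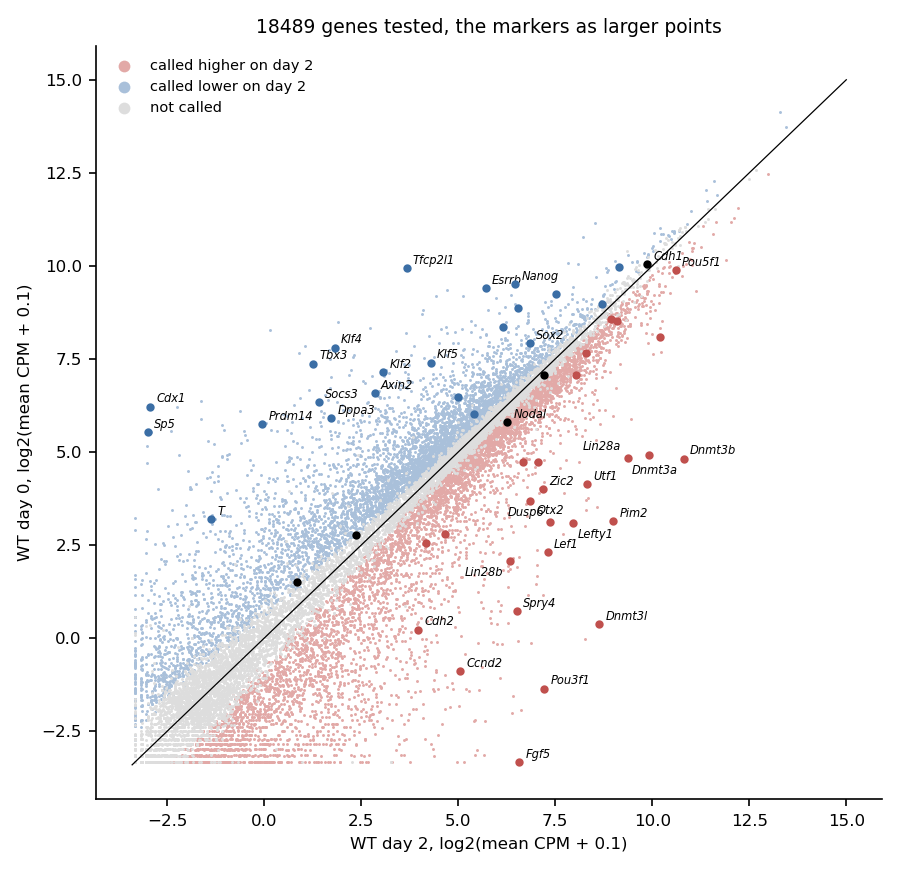
Mean level of each gene tested on WT day 2 (x axis) and on WT day 0 (y axis), both as log2(mean CPM + 0.1), with the diagonal marking equal levels. Colours separate the 6079 genes called higher on day 2, the 5294 called lower and those not called, and the larger points are the 54 markers, with Fgf5, Pou3f1 and Dnmt3l far below the diagonal and Cdx1, Sp5 and Tfcp2l1 far above it.

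Naive pluripotency genes fell nearly as a block. Of 20 genes on the list, all tested, 18 were lower on day 2, 16 of them by 2-fold or more, and none was higher, with a median fold change of -3.91. The members were chosen with earlier results of these data known, so the count describes them and is no test. Their summed level was 1528 and 1981 CPM in the WT day 2 libraries, against 6467 and 5997 CPM in the WT day 0 libraries. In bulk RNA, fewer cells that express a gene and less RNA per cell cannot be told apart.

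Tfcp2l1, a transcription factor of the LIF and Wnt arms of the naive network, had 14.4 and 10.9 CPM on day 2, against 789 and 1168 CPM on day 0. Its fold change of -6.27 ± 0.22 (edgeR adjusted p = 8.87e-11) came with a loss of CPM that was among the 6 largest of called protein-coding genes of 2-fold or more. Klf4, a Krüppel-like factor induced by STAT3, had 3.31 and 3.53 CPM on day 2, against 222 and 225 CPM on day 0 (-6.03 ± 0.19). Tbx3, a T-box factor of the naive network, had 2.29 and 2.33 CPM on day 2, against 162 and 171 CPM on day 0 (-6.17 ± 0.38). For these 3 genes the libraries of the 2 days did not overlap. Prdm14, a repressor of Fgf receptor signalling and of de novo methylation in embryonic stem cells, had 0.731 and 1.01 CPM on day 2, against 53.9 and 53.5 CPM on day 0 (-5.96 ± 0.22).

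The loss was shallower in Nanog, Esrrb and Zfp42. Nanog, the homeodomain factor of the pluripotency core, had 83.6 and 92.9 CPM on day 2, against 738 and 726 CPM on day 0 (-3.05 ± 0.11). Esrrb, an orphan nuclear receptor that the Gsk3 inhibitor keeps high, had 50.9 and 53.3 CPM on day 2, against 661 and 705 CPM on day 0 (-3.71 ± 0.34). Zfp42 (Rex1), the reporter gene by which exit from the naive state is usually followed, had 85.6 and 102 CPM on day 2, against 489.7 and 445 CPM on day 0 (-2.32 ± 0.21). All 3 thus kept a measurable level on day 2, with both day 2 libraries below both day 0 libraries. Klf2, the Krüppel-like factor that MEK inhibition stabilises, averaged 8.33 ± 2.97 CPM on day 2 and 142 ± 28.6 CPM on day 0, and Klf5 averaged 19.5 ± 0.242 CPM on day 2 and 169 ± 0.249 CPM on day 0. Dppa3, a maternal factor that protects methylation marks in the zygote, averaged 3.21 ± 1.26 CPM on day 2 and 60.6 ± 13.0 CPM on day 0.

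Nr0b1 (Dax1), a repressor bound to Oct4 target sites, was the called naive gene with the smallest fold change, with 36.9 and 47.1 CPM on day 2, against 70.2 and 60.0 CPM on day 0 (-0.63 ± 0.21, edgeR adjusted p = 0.0207). Its call was lost without WT day 0 replicate 1 (-0.52, adjusted p = 0.114) and without WT day 2 replicate 1 (-0.46, adjusted p = 0.163), both by edgeR, and in the fit with no filter (-0.67). The 2 members that were not called, looked up after their values were seen, were Dppa5a, at 1069 and 1454 CPM on day 2 against 1922 and 1230.2 CPM on day 0, and Gbx2, at 23.6 and 30.7 CPM on day 2 against 24.0 and 20.0 CPM on day 0. Spic, an ETS factor of the naive state, was at the other end of the list with 0.102 and 0.0778 CPM on day 2, against 52.2 and 42.0 CPM on day 0 (-8.97 ± 0.41).

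Formative and primed epiblast genes rose without exception among the 16 listed, all tested: 16 were higher on day 2, 15 of them by 2-fold or more, with a median fold change of 4.10. This list too was drawn up with earlier results of these data known, so its count is no test of such genes at large. The summed level of the 16 genes was 2204 and 2209 CPM on day 2, against 219 and 212 CPM on day 0. Fgf5, a secreted Fgf and the classical marker of the epiblast after implantation (chromosome 5, 98254184 to 98277030 on GRCm38), had 98.4 and 92.4 CPM on day 2, against 0 CPM in both day 0 libraries. Its 8408 summed counts on day 2 stood against none on day 0, so the level was at least 2452-fold higher on day 2, taking a floor of 3 counts over the day 0 group. Pou3f1 (Oct6), a POU factor of the early epiblast and of glia, had 140.1 and 157 CPM on day 2, against 0.433 and 0.151 CPM on day 0 (8.999 ± 0.25, edgeR adjusted p = 8.37e-12). Without WT day 0 replicate 1 its fold change was 9.91 and without WT day 0 replicate 2 it was 8.39.

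Otx2, a homeodomain factor that moves Oct4 to formative enhancers, had 121 and 110.2 CPM on day 2, against 12.5 and 12.8 CPM on day 0 (3.19 ± 0.12). Zic2, a zinc finger factor of the same enhancers, had 140.1 and 151 CPM on day 2, against 16.6 and 15.4 CPM on day 0 (3.19 ± 0.14). Pim2, a serine/threonine kinase of cell survival, had 496 and 524 CPM on day 2, against 7.97 and 9.44 CPM on day 0 (5.87 ± 0.11). Lef1, the β-catenin partner that activates Wnt targets, had 154 and 161 CPM on day 2, against 4.84 and 4.92 CPM on day 0 (5.01 ± 0.11), and Sox11, a SoxC factor of neural and epiblast cells, had 72.0 and 63.4 CPM on day 2, against 0.270 and 0.477 CPM on day 0 (7.48 ± 0.16). Day 2 libraries stood above day 0 libraries in all 5 of these genes. The plot by library shows the 2 lists in full.

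**Figure D2:**
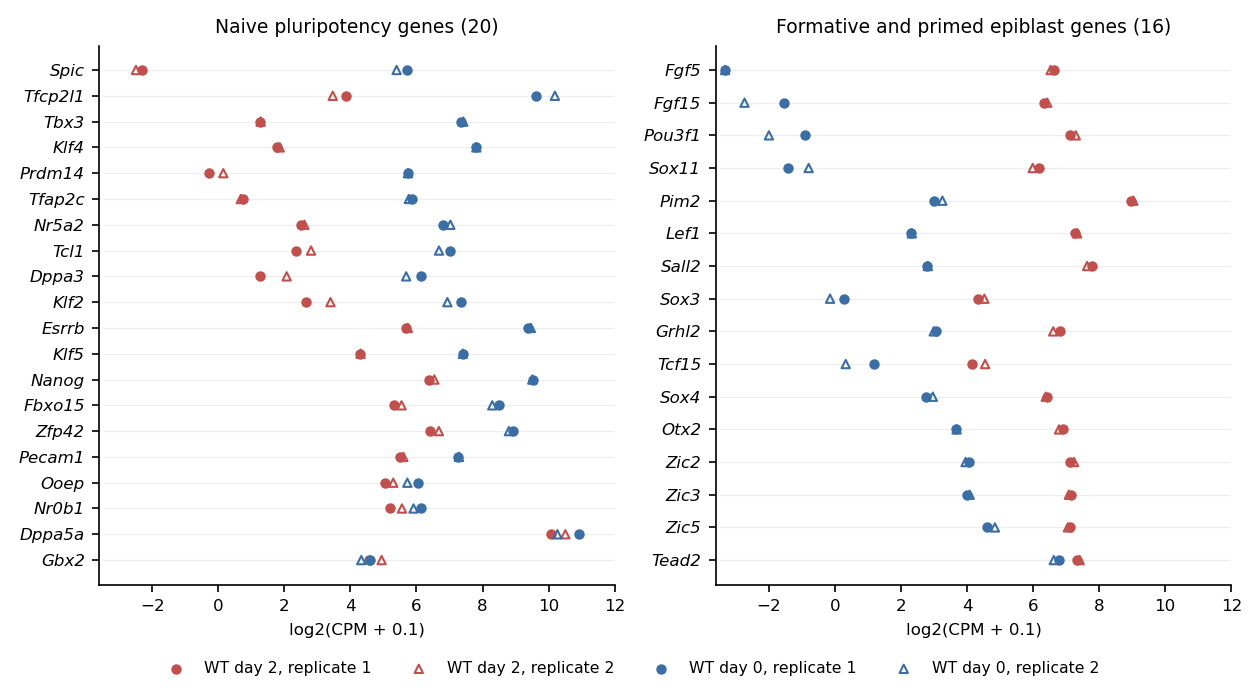
Level of each naive gene (left, 20 genes) and each formative or primed gene (right, 16 genes) in the 4 libraries, as log2(CPM + 0.1) on the x axis, with WT day 2 in red, WT day 0 in blue, filled circles for replicate 1 and open triangles for replicate 2. Day 2 points lie left of day 0 points for the naive genes except Dppa5a and Gbx2, and right of them for all 16 formative genes.

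Among the genes shared by all pluripotent states, most rose. Of 8 on the list, 5 were higher on day 2 and 1 was lower. Pou5f1 (Oct4), the factor that naive and primed cells both need, had 1478 and 1638 CPM on day 2, against 1094 and 803 CPM on day 0 (0.72 ± 0.13, edgeR adjusted p = 0.00023). Sox2, its partner, was the member that was lower, with 107 and 125 CPM on day 2, against 258 and 231 CPM on day 0 (-1.08 ± 0.20). Utf1, a chromatin protein of pluripotent cells, had 286 and 349.6 CPM on day 2, against 20.6 and 14.6 CPM on day 0 (4.17 ± 0.17). Sall4 was not called, at 145 and 149 CPM on day 2 against 131 and 137 CPM on day 0, a fold change of 0.14 ± 0.08. Dppa4, a small SAP-domain protein, had 138 and 147 CPM on day 2, against 48.9 and 42.9 CPM on day 0 (1.64 ± 0.12), and Zfp281, a zinc finger factor of the primed state, had 222 and 199 CPM on day 2, against 71.6 and 92.7 CPM on day 0 (1.36 ± 0.11). On the length-corrected TPM scale Pou5f1 stood at 1721 and 1682 on day 2, against 1069 and 938 on day 0.

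Promoter sequences of 4 markers are printed to show what lies upstream of 2 genes that rose and 2 that fell. Each run is the 250 bases before a RefSeq transcript start (GRCm38.p6, plus strand), read 5′ to 3′, and capitals mark matches to the motifs searched on either strand. For TCF/LEF factors, through which β-catenin acts, the letters were ATCAAAG. For STAT factors, through which LIF acts, they were TTCNNNGAA. For ETS factors, which ERK can activate, they were CCGGAAG. For the E-box, bound by Myc and other bHLH factors, they were CACGTG. Where a gene has more than 1 RefSeq start, the one closest to the transcript that led by level is given.
Fgf5, higher on day 2, chr5:98253934-98254183: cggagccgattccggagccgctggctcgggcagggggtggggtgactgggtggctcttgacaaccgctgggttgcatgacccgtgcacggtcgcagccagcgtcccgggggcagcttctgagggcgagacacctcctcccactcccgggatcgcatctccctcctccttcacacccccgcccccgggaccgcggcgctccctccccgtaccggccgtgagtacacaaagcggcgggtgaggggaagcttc
Dnmt3l, higher on day 2, chr10:78049592-78049841: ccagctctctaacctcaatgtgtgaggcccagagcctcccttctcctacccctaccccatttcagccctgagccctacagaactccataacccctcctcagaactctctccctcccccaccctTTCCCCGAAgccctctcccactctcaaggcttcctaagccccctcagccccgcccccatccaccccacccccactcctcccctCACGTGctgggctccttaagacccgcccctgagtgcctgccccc
Sp5, lower on day 2, chr2:70474673-70474922: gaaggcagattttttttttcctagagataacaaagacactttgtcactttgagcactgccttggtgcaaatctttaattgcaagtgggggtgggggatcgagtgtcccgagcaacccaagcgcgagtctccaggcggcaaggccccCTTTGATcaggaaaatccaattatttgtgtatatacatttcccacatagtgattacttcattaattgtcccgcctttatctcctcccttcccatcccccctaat
Tfcp2l1, lower on day 2, chr1:118627695-118627944: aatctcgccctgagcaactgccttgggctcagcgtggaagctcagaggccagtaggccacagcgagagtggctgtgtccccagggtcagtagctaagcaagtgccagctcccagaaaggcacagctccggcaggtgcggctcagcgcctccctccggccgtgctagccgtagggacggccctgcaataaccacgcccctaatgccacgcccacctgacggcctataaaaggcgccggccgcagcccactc
Sp5 held the TCF/LEF letters, read on the other strand, 104 bases before its start. The Dnmt3l window held a STAT match 127 bases and an E-box 44 bases before its start, and the windows of Fgf5 and Tfcp2l1 held none of the 4 motifs. The 4 windows differed in CpG dinucleotides, with 24 in Fgf5, 4 in Dnmt3l, 6 in Sp5 and 16 in Tfcp2l1. Over the 13162 genes tested that have a RefSeq promoter, the median was 14 CpG per window, against 8.5 in genes higher by 8-fold or more and 7 in genes lower by 8-fold or more. A gene was counted for a motif when any of its windows held the letters. TCF/LEF letters stood in 2.99% of the 13162 genes, in 2.64% of those higher by 8-fold or more and in 5.02% of those lower by 8-fold or more. ETS letters stood in 13.0%, 3.19% and 2.62% of the same sets. By 2-fold or more, TCF/LEF letters stood in 3.39% of genes higher and 3.43% of genes lower, and in 3.19% of genes not called. The ETS letters hold a CpG themselves. These shares describe the letters in the windows and were not tested.

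LIF and STAT3 genes were lower in 10 of 13 cases on day 2 and higher in none, with a median fold change of -1.80. Socs3, the feedback inhibitor that STAT3 induces, had 2.32 and 2.78 CPM on day 2, against 86.6 and 74.8 CPM on day 0 (-4.99 ± 0.20, edgeR adjusted p = 1.48e-10). Stat3 itself had 17.3 and 16.8 CPM on day 2, against 118 and 134 CPM on day 0 (-2.89 ± 0.11). Icam1, an adhesion receptor that STAT3 can induce, had 9.34 and 9.31 CPM on day 2, against 114 and 108 CPM on day 0 (-3.57 ± 0.16). Day 2 libraries were below day 0 libraries in each. The 3 members that were not called, looked up after their values were seen, were the kinase Jak1 (0.008 ± 0.09) and the feedback genes Socs2 (0.20 ± 0.10) and Cish (0.07 ± 0.20).

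Wnt and β-catenin targets were lower in 10 of 15 cases and higher in 3, with a median of -1.38. Sp5, a direct β-catenin target (chromosome 2, 70474923 to 70477729 on GRCm38), had 0 and 0.0519 CPM on day 2, against 53.7 and 39.2 CPM on day 0. That is 2 counts against 3546, a level 2027-fold lower on day 2 (95% counting interval 561 to 16741). Cdx1, a caudal factor that Wnt induces, had 0.0609 and 0 CPM on day 2, against 89.2 and 59.8 CPM on day 0, or 3 counts against 5678, and its level was 2163-fold lower on day 2 (95% counting interval 740 to 10494). Axin2, the scaffold of the destruction complex and the usual Wnt readout, had 6.78 and 7.45 CPM on day 2, against 87.1 and 104 CPM on day 0 (-3.75 ± 0.16). T (Brachyury), a mesoderm factor that the Gsk3 inhibitor induces, had 0.345 and 0.233 CPM on day 2, against 9.27 and 8.94 CPM on day 0 (-4.93 ± 1.02), and Rnf43, a ubiquitin ligase that removes Wnt receptors, had 0.223 and 0.259 CPM on day 2, against 9.002 and 10.1 CPM on day 0 (-5.30 ± 0.36).

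Lef1, already described, went the other way, as did Nkd1, a Dishevelled inhibitor, at 5.73 and 5.66 CPM on day 2 against 3.62 and 3.49 CPM on day 0 (0.68 ± 0.14). Ascl2, a bHLH factor of trophoblast and intestine, was the third, at 1.64 and 1.92 CPM on day 2 against 0.433 and 0.578 CPM on day 0 (1.81 ± 0.37). The 2 that were not called, looked up after their values were seen, were Znrf3 (-0.13 ± 0.10) and Lgr5 (0.77 ± 0.36). Of 10 list members with a RefSeq promoter, 2 held the TCF/LEF letters in any of their windows, 2 the ETS letters and 2 the E-box. Of all genes tested that have a RefSeq promoter, 2.99%, 13.0% and 9.04% held these letters, and the difference was not tested.

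FGF-ERK genes rose in most cases. Of 19 targets and feedback genes, 16 were higher on day 2 and 1 was lower, with a median of 1.09, and of 9 ligands and receptors 7 were higher and none lower. Without WT day 2 replicate 1, 1 ligand or receptor was called lower. Dusp6, the ERK phosphatase, had 159 and 169 CPM on day 2, against 8.57 and 8.52 CPM on day 0 (4.26 ± 0.11, edgeR adjusted p = 5.49e-12). Spry4, an inhibitor of receptor tyrosine kinase signalling, had 91.0 and 91.8 CPM on day 2, against 1.54 and 1.56 CPM on day 0 (5.88 ± 0.14). Etv4, an ETS factor downstream of Fgf, had 98.5 and 106 CPM on day 2, against 28.7 and 24.3 CPM on day 0 (1.95 ± 0.10). Etv5, its relative, differed less, at 511 and 473 CPM on day 2 against 364 and 393 CPM on day 0 (0.38 ± 0.10).

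Egr1, an immediate early gene, had 28.3 and 21.7 CPM on day 2, against 7.06 and 6.73 CPM on day 0 (1.86 ± 0.31). Fos, another immediate early gene, was the member that was lower, with 0.690 and 0.856 CPM on day 2, against 14.5 and 14.1 CPM on day 0 (-4.22 ± 0.26). Myc, which drives growth genes, had 72.6 and 82.9 CPM on day 2, against 2.41 and 2.61 CPM on day 0 (4.95 ± 0.13). Egr1 and Fos were thus separated between the days in opposite directions. Fgf4, the Fgf that embryonic stem cells make themselves, had 248 and 275 CPM on day 2, against 140.5 and 126 CPM on day 0 (0.97 ± 0.13). Fgfr1, the main receptor in these cells, averaged 186 ± 2.73 CPM on day 2 and 104 ± 0.354 CPM on day 0, and Fgfr2 averaged 12.4 ± 0.295 CPM on day 2 and 0.379 ± 0.0381 CPM on day 0.

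Nodal and Activin genes were higher in 8 of 17 cases and lower in 2, with a median of 0.46. Lefty1, a secreted Nodal antagonist and a Smad2 target, had 220.4 and 280.3 CPM on day 2, against 9.22 and 7.54 CPM on day 0 (4.90 ± 0.61, edgeR adjusted p = 4.86e-05), and Lefty2 had 122 and 144 CPM on day 2, against 28.1 and 24.7 CPM on day 0 (2.33 ± 0.49). Skil, a Smad corepressor induced by Activin, had 406 and 349.5 CPM on day 2, against 35.3 and 45.1 CPM on day 0 (3.23 ± 0.15). Nodal itself was not called, at 73.0 and 79.9 CPM on day 2 against 59.7 and 51.7 CPM on day 0 (0.46 ± 0.23). Its libraries did not overlap between the days, and it was called in the fit restricted to the 4 libraries (0.40). The 2 that were lower were Acvr1b, the type I Activin receptor, at 29.5 and 23.8 CPM on day 2 against 70.2 and 82.8 CPM on day 0 (-1.52 ± 0.11), and Smad3, at 23.9 and 22.4 CPM on day 2 against 41.8 and 50.5 CPM on day 0 (-0.997 ± 0.09).

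Of 16 BMP genes, 4 were higher and 6 lower, near the shares of all genes. Id1 and Id3, the BMP readouts, were not called, with Id1 at 1.20 and 2.23 CPM on day 2 against 3.16 and 2.29 CPM on day 0 (-0.69 ± 0.52), and Id3 at 4.79 and 5.29 CPM on day 2 against 7.97 and 5.45 CPM on day 0 (-0.41 ± 0.59). Without 1 library Id1 ranged over -1.18 to -0.28 and Id3 over -0.69 to -0.12, and Id3 was called lower in the fit of the 8 libraries of days 0 and 2 (-0.48). Bmp7, a BMP ligand, had 2.13 and 2.72 CPM on day 2, against 41.2 and 39.5 CPM on day 0 (-4.06 ± 0.21). Id4, a related inhibitor of bHLH factors, had 0.954 and 1.14 CPM on day 2, against 10.3 and 9.60 CPM on day 0 (-3.25 ± 0.25). Dusp9, a phosphatase of ERK that BMP can induce, had 274 and 282 CPM on day 2, against 90.6 and 83.1 CPM on day 0 (1.68 ± 0.17).

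The DNA methylation machinery was called in all 11 genes listed, with 8 higher and 3 lower on day 2. In the fit of the 4 libraries alone 6 were higher and 2 lower, and with RLE scaling 7 were higher and 3 lower. Dnmt3b, a de novo methyltransferase, had 1898 and 1695 CPM on day 2, against 27.3 and 29.3 CPM on day 0 (5.99 ± 0.23, edgeR adjusted p = 2.41e-10), a gain of CPM among the 6 largest of called protein-coding genes of 2-fold or more. Dnmt3a, the second de novo enzyme, had 974 and 952 CPM on day 2, against 27.5 and 33.1 CPM on day 0 (4.99 ± 0.64). Dnmt3l, their catalytically inactive partner, whose promoter window is printed above, had 372 and 421 CPM on day 2, against 1.51 and 0.904 CPM on day 0 (8.36 ± 0.42). Their levels per length on day 2 were 706 and 539 TPM for Dnmt3b, 472 and 389 TPM for Dnmt3a and 345 and 344 TPM for Dnmt3l, and all 3 were at 11.7 TPM or less in each day 0 library.

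Dnmt1, the maintenance enzyme, had 441 and 401 CPM on day 2, against 457 and 545 CPM on day 0 (-0.25 ± 0.09, edgeR adjusted p = 0.0262). Its call was lost without WT day 0 replicate 2 (-0.14), without WT day 2 replicate 2 (-0.19), in the fit of the 8 WT libraries (-0.29) and in fits of the 4 libraries with no block and with the replicate block (both -0.31). Uhrf1, which brings Dnmt1 to the replication fork, had 593 and 544 CPM on day 2, against 978 and 1026 CPM on day 0 (-0.82 ± 0.07). Tet2, a dioxygenase that oxidises methylcytosine, had 33.4 and 30.6 CPM on day 2, against 63.3 and 115 CPM on day 0 (-1.48 ± 0.26). Tet1, the other main dioxygenase of these cells, overlapped between the days, at 634 and 459 CPM on day 2 against 250 and 478 CPM on day 0. Its fold change of 0.59 ± 0.24 sat at the threshold (edgeR adjusted p = 0.0497) and lost its call in 14 alternatives, among them those without WT day 0 replicate 1 (0.19) and without WT day 2 replicate 1 (0.34). Tdg, the glycosylase that removes oxidised cytosine, averaged 134 ± 8.43 CPM on day 2 and 55.8 ± 3.52 CPM on day 0.

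Lin28 and let-7 genes, which tune translation and growth, were called in all 10 cases, 6 higher and 4 lower. Lin28a, which blocks let-7 maturation, had 653 and 684 CPM on day 2, against 27.7 and 29.2 CPM on day 0 (4.55 ± 0.09, edgeR adjusted p = 1.15e-12), and Lin28b had 82.7 and 78.9 CPM on day 2, against 3.89 and 4.30 CPM on day 0 (4.30 ± 0.10). Hmga2, a let-7 target, went down, at 21.0 and 20.9 CPM on day 2 against 50.1 and 53.7 CPM on day 0 (-1.31 ± 0.33). Dis3l2, the exonuclease that degrades blocked let-7 precursors, had 18.6 and 19.1 CPM on day 2, against 33.9 and 34.9 CPM on day 0 (-0.87 ± 0.09).

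Of 22 Polycomb genes, 7 were higher (31.8%) and 9 lower (40.9%), against 32.9% and 28.6% of all genes, with a median of -0.15. Without WT day 2 replicate 1, 5 were lower, and without WT day 0 replicate 1 the median was 0.02. Phc1, a subunit of the repressive complex that compacts chromatin, had 1083 and 991 CPM on day 2, against 196 and 200.3 CPM on day 0 (2.39 ± 0.08). Jarid2, which guides the methylating complex, averaged 411 ± 8.85 CPM on day 2 and 206 ± 23.9 CPM on day 0, and Suz12, a core subunit of that complex, averaged 216 ± 5.87 CPM on day 2 and 479.9 ± 44.9 CPM on day 0. Ezh1, one of the 2 catalytic subunits, averaged 24.4 ± 0.884 CPM on day 2 and 63.1 ± 4.70 CPM on day 0.

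Germline genes, many of them repressed by promoter methylation in somatic cells, were higher in 18 of 27 cases and lower in 4, with a median of 1.14. Tdrd1, a Tudor protein of the piRNA pathway, had 8.65 and 8.12 CPM on day 2, against 0.324 and 0.352 CPM on day 0 (4.62 ± 0.37, edgeR adjusted p = 1.21e-07). Tdrkh, another Tudor protein, had 11.8 and 13.6 CPM on day 2, against 2.11 and 1.71 CPM on day 0 (2.73 ± 0.18), and Tex11, an X-linked meiosis gene, had 16.04 and 16.5 CPM on day 2, against 4.19 and 3.39 CPM on day 0 (2.10 ± 0.16). Others fell. Dazl, which binds messenger RNA in germ cells, had 26.1 and 25.1 CPM on day 2, against 190.0 and 200.4 CPM on day 0 (-2.93 ± 0.17). Stra8, which retinoic acid induces before meiosis, had 1.34 and 2.96 CPM on day 2, against 32.8 and 23.7 CPM on day 0 (-3.74 ± 0.39), and -4.40 without WT day 2 replicate 2. Fkbp6, a cochaperone of spermatocytes, had 18.03 and 22.4 CPM on day 2, against 90.6 and 74.6 CPM on day 0 (-2.03 ± 0.13). Summed over the list the level was 386 and 409 CPM on day 2, against 568 and 520 CPM on day 0, lower in sum although most genes were higher.

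Primordial germ cell factors were lower in 8 of 9 cases and higher in none, although 1 member was called higher without WT day 0 replicate 1. Kit, the stem cell factor receptor, had 16.9 and 16.8 CPM on day 2, against 406 and 502 CPM on day 0 (-4.75 ± 0.17), and Tfap2c, an AP-2 factor shared by germ cells and trophoblast, had 1.56 and 1.505 CPM on day 2, against 57.6 and 54.4 CPM on day 0 (-5.19 ± 0.36). Prdm14, given with the naive genes, stands on this list too, and Tfap2c is also a member of the naive list.

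Two-cell-stage genes, which mark a small share of embryonic stem cells that cycle through a totipotent-like state, were higher in 12 of 14 cases and lower in none. Their level was low, summing to 32.1 and 35.4 CPM on day 2, against 1.22 and 1.66 CPM on day 0, and the median fold change was 5.52, or 3.90 with the genes that had no count on day 0 set at their bounds. Zscan4e had 5.38 and 5.63 CPM on day 2, against 0.0270 and 0 CPM on day 0, a level 422-fold higher on 482 counts against 1 (95% counting interval 75.3 to 16689). Zscan4d had 2.80 and 4.18 CPM on day 2, against 0.0270 and 0 CPM on day 0, and was 262-fold higher (46.6 to 10366). Zscan4 and Usp17l genes come in near-identical copies among which shared reads cannot be placed, so single members are uncertain.

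Imprinted genes were higher in 14 of 21 cases and lower in 3, with a median of 1.39. Snrpn, expressed from the paternal allele, had 420.0 and 457 CPM on day 2, against 77.6 and 62.3 CPM on day 0 (2.65 ± 0.11), and Cdkn1c, a cell cycle inhibitor expressed from the maternal allele, had 17.6 and 23.7 CPM on day 2, against 0.324 and 0.402 CPM on day 0 (5.81 ± 0.30). Nap1l5 averaged 7.65 ± 0.560 CPM on day 2 and 0.963 ± 0.0237 CPM on day 0. The 3 that were lower were Plagl1, a zinc finger factor, at 4.77 and 4.54 CPM on day 2 against 129.7 and 165 CPM on day 0 (-4.98 ± 0.27), the receptor Igf2r (-0.96 ± 0.15) and Sgce (-1.15 ± 0.18). Parental alleles cannot be told apart in these counts.

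**Figure D3:**
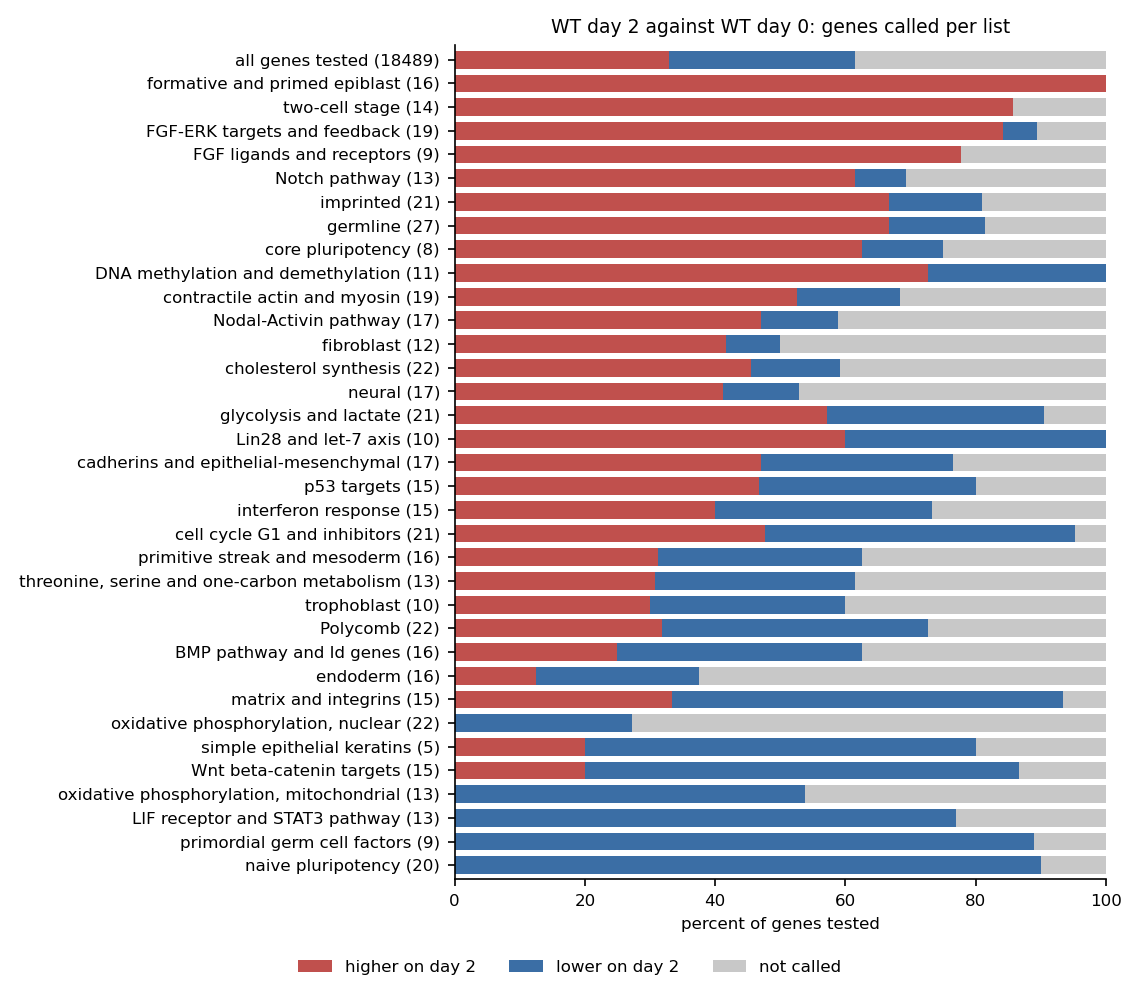
Share of the genes tested on each list, in percent on the x axis, that were higher on WT day 2, lower on WT day 2 or not called, with the number tested in brackets and all 18489 genes in the top row. The rows below it run by the difference between the shares higher and lower, with formative genes at the top and naive genes at the bottom.

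Among adhesion genes, 8 of 17 cadherin, junction and mesenchymal genes were higher (47.1%) and 5 lower (29.4%), against 32.9% and 28.6% of all genes. Cdh1 (E-cadherin), the epithelial cadherin, was not called, at 971 and 889 CPM on day 2 against 1008 and 1117 CPM on day 0 (-0.19 ± 0.13). It was called lower in the fit of the 8 libraries of days 0 and 2 (-0.26). Cdh2 (N-cadherin) had 15.8 and 15.3 CPM on day 2, against 0.946 and 1.21 CPM on day 0 (3.85 ± 0.16). Per length Cdh2 stood at 5.64 and 4.83 TPM on day 2 beside 323 and 257 TPM of Cdh1. Esrp1, a splicing regulator of epithelia, had 74.4 and 65.3 CPM on day 2, against 0.730 and 0.854 CPM on day 0 (6.45 ± 0.23, edgeR adjusted p = 6.51e-11), while its relative Esrp2 averaged 4.05 ± 0.108 CPM on day 2 and 11.6 ± 1.17 CPM on day 0. Epcam, an epithelial adhesion molecule, had 199 and 224 CPM on day 2, against 65.0 and 51.5 CPM on day 0 (1.86 ± 0.12), and Vim, the intermediate filament of mesenchyme, was lower, at 92.1 and 104 CPM on day 2 against 283 and 230.4 CPM on day 0 (-1.39 ± 0.13). The count of genes lower was 3 without either of the WT day 2 replicates.

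Simple epithelial keratins were 1 higher and 3 lower of 5, and 1 was lower without WT day 0 replicate 1 or without WT day 2 replicate 1. Krt18 had 17.1 and 18.9 CPM on day 2, against 6.51 and 5.05 CPM on day 0 (1.64 ± 0.15), Krt7 averaged 1.83 ± 0.01002 CPM on day 2 and 6.61 ± 0.251 CPM on day 0, and Krt8 averaged 11.0 ± 0.823 CPM on day 2 and 21.4 ± 3.36 CPM on day 0, its call being lost without WT day 0 replicate 1 (-0.79) and without WT day 2 replicate 1 (-0.88). Contractile genes were higher in 10 of 19 cases and lower in 3. Tpm2, a tropomyosin, had 41.0 and 44.2 CPM on day 2, against 3.57 and 2.74 CPM on day 0 (3.76 ± 0.13), and Myl9, a regulatory myosin light chain, was 286-fold higher on 981 counts against 3 (95% counting interval 97.6 to 1389.6).

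Matrix and integrin genes were called in 14 of 15 cases, 5 higher and 9 lower. Fn1 (fibronectin) had 337 and 256 CPM on day 2, against 1371 and 2160.5 CPM on day 0 (-2.57 ± 0.18, edgeR adjusted p = 3.93e-08). Nid1, a basement membrane linker, had 16.2 and 16.8 CPM on day 2, against 344 and 495 CPM on day 0 (-4.66 ± 0.18), and Lama1, a laminin chain, had 5.60 and 3.97 CPM on day 2, against 158 and 217 CPM on day 0 (-5.28 ± 0.27). Col4a1, a collagen of basement membranes, moved the other way, with 35.8 and 28.8 CPM on day 2, against 1.41 and 1.66 CPM on day 0 (4.39 ± 0.40), as did Lama5, at 349 and 258 CPM on day 2 against 108 and 159.7 CPM on day 0 (1.18 ± 0.18). Between the day 0 libraries Fn1, Nid1 and Lama1 were higher in replicate 2, the direction that long transcripts had there, and the part of that difference in these fold changes was not tested.

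Notch genes were higher in 8 of 13 cases and lower in 1. Without WT day 0 replicate 1, 2 were lower. Dll1, a Notch ligand, had 30.3 and 34.3 CPM on day 2, against 0.216 and 0.151 CPM on day 0 (7.44 ± 0.35), and the ligand Jag2 averaged 33.0 ± 1.67 CPM on day 2 and 7.22 ± 0.233 CPM on day 0. Hes1, a target repressor, was the member that was lower, at 13.3 and 14.1 CPM on day 2 against 71.0 and 57.9 CPM on day 0 (-2.23 ± 0.22).

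Cell cycle regulators of G1 were called in 20 of 21 cases, 10 higher and 10 lower. Ccnd2, a D-type cyclin, had 31.7 and 34.3 CPM on day 2, against 0.460 and 0.427 CPM on day 0 (6.21 ± 0.92, edgeR adjusted p = 0.000202), Ccnd1 had 310.1 and 313 CPM on day 2, against 204 and 202 CPM on day 0 (0.62 ± 0.08), and Ccnd3 was lower, at 69.6 and 80.8 CPM on day 2 against 187 and 161 CPM on day 0 (-1.21 ± 0.10). Ccne1, an E-type cyclin, averaged 233 ± 16 CPM on day 2 and 82.5 ± 12.3 CPM on day 0. Cdkn1a (p21), an inhibitor of cyclin-dependent kinases, had 70.0 and 73.4 CPM on day 2, against 359 and 303 CPM on day 0 (-2.21 ± 0.09), and Cdkn1b (p27) averaged 48.8 ± 2.47 CPM on day 2 and 97.4 ± 7.87 CPM on day 0. Of 15 p53 targets, Cdkn1a among them, 7 were higher (46.7%) and 5 lower (33.3%), against 32.9% and 28.6% of all genes. Without WT day 2 replicate 1, 4 were higher and 4 lower. Pmaip1 (Noxa), a death factor, had 58.2 and 64.4 CPM on day 2, against 10.6 and 9.44 CPM on day 0 (2.61 ± 0.15).

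Interferon response genes were called in 11 of 15 cases, 6 higher and 5 lower, near the shares of all genes, and 1 of the 16 listed did not pass the filter. The antiviral genes Ifit2, at 7.43 and 6.67 CPM on day 2 against 0.568 and 0.678 CPM on day 0 (3.49 ± 0.16), and Bst2, at 102 and 117 CPM on day 2 against 33.1 and 22.9 CPM on day 0 (1.97 ± 0.14), were higher. Irf9 and Stat2, transcription factors of the pathway, were among the 5 that were lower. Irf9 averaged 5.15 ± 0.676 CPM on day 2 and 25.6 ± 1.63 CPM on day 0. Stat2 averaged 19.6 ± 1.56 CPM on day 2 and 56.8 ± 2.59 CPM on day 0.

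Glycolysis genes were called in 19 of 21 cases, 12 higher and 7 lower, with a median of 0.76. Ldha, which makes lactate, had 1147 and 1206 CPM on day 2, against 302 and 239 CPM on day 0 (2.12 ± 0.17, edgeR adjusted p = 1.38e-07). Pkm, pyruvate kinase, had 3744 and 3896 CPM on day 2, against 1229 and 1065 CPM on day 0 (1.74 ± 0.11). Slc16a3, a lactate exporter, had 369 and 398 CPM on day 2, against 11.4 and 11.6 CPM on day 0 (5.06 ± 0.13), and Pdk1, which keeps pyruvate from the mitochondrion, averaged 243 ± 2.58 CPM on day 2 and 57.3 ± 0.306 CPM on day 0. Other members fell. Hk1, a hexokinase, had 26.3 and 26.1 CPM on day 2, against 282 and 303 CPM on day 0 (-3.48 ± 0.08), Hk2 had 183 and 184 CPM on day 2, against 563 and 644 CPM on day 0 (-1.72 ± 0.11), and the glucose carrier Slc2a3 had 354 and 385 CPM on day 2, against 2147 and 2423 CPM on day 0 (-2.63 ± 0.20).

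Genes of oxidative phosphorylation fell in part and none was called higher. Of 22 nuclear genes, 6 were lower on day 2, a share of 27.3% that is near the 28.6% of all genes, and the count depended on single libraries. It was 19 lower without WT day 0 replicate 2, 14 without WT day 2 replicate 2, 4 without WT day 2 replicate 1, and 4 lower and 3 higher without WT day 0 replicate 1. Uqcrc2, a subunit of complex III, averaged 143 ± 7.87 CPM on day 2 and 219.6 ± 19.0 CPM on day 0 (-0.62 ± 0.08). Of the 13 genes encoded in mitochondrial DNA, 7 were lower. They include mt-Co1, the catalytic subunit of complex IV, at 9432 and 10493 CPM on day 2 against 17862 and 18345 CPM on day 0 (-0.86 ± 0.09), and mt-Nd5, at 1226 and 1158 CPM on day 2 against 1636 and 2057 CPM on day 0 (-0.63 ± 0.11). Without WT day 0 replicate 2 or without WT day 2 replicate 1, 1 mitochondrial gene was called higher.

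Cholesterol synthesis genes were higher in 10 of 22 cases and lower in 3. Lss was among those higher, at 92.0 and 75.7 TPM on day 2 against 28.7 and 38.7 TPM on day 0. Ebp, an isomerase of the pathway, was among those that were lower and had 8.87 and 11.1 CPM on day 2, against 54.7 and 41.9 CPM on day 0 (-2.28 ± 0.17). Of 13 genes of threonine, serine and one-carbon metabolism, 4 were higher and 4 lower, and 2 were lower without WT day 0 replicate 1 or without WT day 2 replicate 1. Tdh, the threonine dehydrogenase on which mouse embryonic stem cells depend for glycine, had 24.5 and 27.9 CPM on day 2, against 711 and 593 CPM on day 0 (-4.64 ± 0.21, edgeR adjusted p = 1.02e-09). Gldc, the glycine decarboxylase, averaged 188 ± 13.8 CPM on day 2 and 69.5 ± 5.38 CPM on day 0. Asns, asparagine synthetase, and Bcat1, a transaminase of branched amino acids, were among the 6 largest losses in CPM, with Asns at 250.1 and 291 CPM on day 2 against 1176 and 964 CPM on day 0 (-1.99 ± 0.19) and Bcat1 at 224 and 228 CPM on day 2 against 1115 and 1058 CPM on day 0 (-2.27 ± 0.27).

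Markers of other cell types made up small sums. The neural list summed to 181 and 182 CPM on day 2, against 185 and 189 CPM on day 0, with 7 of 17 tested genes higher and 2 lower. Sox1 had 34.1 and 39.3 CPM on day 2, against 5.16 and 5.43 CPM on day 0 (2.79 ± 0.17), and Pax6 had 11.3 and 13.4 CPM on day 2, against 0.487 and 1.23 CPM on day 0 (3.83 ± 0.29, or 4.63 without WT day 0 replicate 2), while Msi1 averaged 23.6 ± 0.467 CPM on day 2 and 101 ± 4.36 CPM on day 0. Primitive streak and mesoderm genes summed to 27.1 and 28.6 CPM on day 2, against 44.5 and 43.0 CPM on day 0, with 5 of 16 higher and 5 lower. The number higher was 3, 2, 3 and 3 when WT day 0 replicate 1, WT day 0 replicate 2, WT day 2 replicate 1 or WT day 2 replicate 2 was left out, and 3 were lower without WT day 2 replicate 1. Fgf8 was among those higher, at 5.13 and 5.44 TPM on day 2 against 0.285 and 0.228 TPM on day 0. So were Wnt8a, 92.4-fold higher on 317 counts against 3, and Hand1, 12.8-fold higher on 44 counts against 3. Gsc, a Nodal and Wnt target of the organiser, was lower, averaging 0.236 ± 0.0399 CPM on day 2 and 6.98 ± 1.37 CPM on day 0. The streak factors Eomes and Mixl1, looked up after their values were seen, were not called, Eomes at 6.80 and 6.17 CPM on day 2 against 8.14 and 7.81 CPM on day 0.

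The endoderm list summed to 16.7 and 17.7 CPM on day 2, against 23.6 and 24.1 CPM on day 0, with 2 of 16 higher and 4 lower. Leaving out WT day 0 replicate 1 left 1 higher and 2 lower, WT day 0 replicate 2 left 1 higher, and WT day 2 replicate 1 left 2 lower. Foxa1, at 0.330 and 0.342 TPM on day 2 against 0.0820 and 0.148 TPM on day 0, and Cubn were the 2 that were higher. Hhex was among those lower, at 1.81 and 1.97 TPM on day 2 against 6.78 and 7.48 TPM on day 0. Gata6 and Sox17, which define endoderm and were looked up after their values were seen, were at or below 1.16 CPM in every library. Of 10 trophoblast genes tested, 3 were higher and 3 lower, and they summed to 10.3 and 10.7 CPM on day 2, against 70.7 and 88.1 CPM on day 0, most of the day 0 sum being Tead4, a factor that embryonic stem cells also express, at 2.88 and 2.72 CPM on day 2 against 57.4 and 74.9 CPM on day 0 (-4.56 ± 0.34). Fibroblast genes summed to 32.6 and 29.7 CPM on day 2, against 18.03 and 19.97 CPM on day 0, with 5 of 12 higher and 1 lower, and 2 higher without WT day 0 replicate 1 or 3 without WT day 2 replicate 1. Dcn, a matrix proteoglycan, had 18.1 and 17.1 CPM on day 2, against 0.108 and 0 CPM on day 0 (8.32 ± 0.84, or 7.28 without WT day 0 replicate 2). Without WT day 0 replicate 1 no count of Dcn was left on day 0, so the 12.52 of that fit is no estimate of its fold change. Pdgfrb, a receptor of stromal cells, averaged 1.10 ± 0.0848 CPM on day 2 and 13.5 ± 0.515 CPM on day 0. The defining fibroblast gene Col1a1, likewise looked up, was at 1.08 and 0.778 CPM on day 2, against 0.811 and 0.904 CPM on day 0. The part of such cells in any result was not tested.

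Beyond the lists, the 12 largest rises among called protein-coding genes of at least 5 CPM on one day were led by Fgf5 and held several genes with no count on day 0. Enpp2 (autotaxin), a secreted enzyme that makes lysophosphatidic acid, had 38.3 and 32.6 CPM on day 2, against 0 CPM in both day 0 libraries, at least 916-fold higher. Gpm6a, a neuronal membrane glycoprotein, was at least 341-fold higher, Rbbp8nl at least 253-fold, Cbln4 at least 163-fold, Cend1 at least 141-fold and the cadherin Cdh9 at least 140-fold. Cxcl12, the ligand of Cxcr4, had 52.9 and 48.5 CPM on day 2, against 0.0270 and 0 CPM on day 0, a level 3917-fold higher on 4477 counts against 1 (95% counting interval 703 to 154733). Car4, a carbonic anhydrase, had 41.9 and 45.0 CPM on day 2, against 0.0270 and 0 CPM on day 0 (3323-fold, 596 to 131270), and Bcl11a, a zinc finger factor, had 47.7 and 41.9 CPM on day 2, against 0 and 0.0502 CPM on day 0 (1735-fold, 480 to 14333). Aadat was 1590-fold higher on 1817 counts against 1, and Gdf1, which shares a transcript with its neighbour Cers1 and is uncertain, was at least 153-fold higher.

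The 12 largest falls included Sp5, Cdx1 and Spic from above. Srarp and Hspb7 had no count on day 2 and were at least 268-fold and at least 215-fold lower on day 2, with Srarp at 10.3 and 8.14 CPM and Hspb7 at 7.46 and 7.26 CPM on day 0. S1pr1, a receptor for sphingosine phosphate, had 0.0203 and 0.0259 CPM on day 2, against 37.5 and 33.3 CPM on day 0, a level 1551-fold lower on day 2 (95% counting interval 429 to 12810). Mal, a proteolipid of myelin and epithelia, had 0.0406 and 0.0259 CPM on day 2, against 49.6 and 43.3 CPM on day 0, and was 1355-fold lower on day 2 (463 to 6571). The serotonin receptor gene Htr5a was 1144-fold lower on day 2 (316 to 9455). Aqp3, a channel for water and glycerol, had 0.934 and 1.09 CPM on day 2, against 340.1 and 285 CPM on day 0 (-8.28 ± 0.25), Trpm1 had 0.244 and 0.208 CPM on day 2, against 86.9 and 77.8 CPM on day 0 (-8.48 ± 0.22), and the GPI-anchored surface protein Ly6a (Sca-1) had 0.122 and 0.104 CPM on day 2, against 85.9 and 62.9 CPM on day 0 (-9.31 ± 0.37).

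By gain in CPM among called protein-coding genes of 2-fold or more, which is not per length, the 6 leading genes were Dnmt3b, Dnmt3a, Pkm, Ldha, L1td1, an RNA-binding protein of pluripotent cells at 1149.5 and 1235 CPM on day 2 against 209 and 202 CPM on day 0, and Eno1b, a near copy of the enolase gene Eno1 with which it may share reads. The 6 largest losses were Slc2a3, Fn1, Tfcp2l1, Bcat1, Asns and Nanog. Per length, the 10 most abundant protein-coding genes on day 2 included mt-Atp8, mt-Co1, Eef1a1, Gapdh, mt-Co3, Rplp1, Rpl32, Npm1 and Ptma. Npm1, a nucleolar chaperone, stood at 5646 and 5698 TPM on day 2, against 3339 and 3555 TPM on day 0, and Ptma at 5668 and 5449 TPM on day 2, against 2995 and 3181 TPM on day 0. mt-Co1 stood at 9470 and 9297 TPM on day 2, against 15064 and 18506 TPM on day 0.

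Some genes changed their leading transcript. Of 7606 genes with 2 or more transcripts and at least 10 CPM in each of the 4 libraries, 23 had another leading transcript on day 2, with the day 0 leader, taken by its mean share over both libraries, down by 30 percentage points or more between the nearest libraries. In 4 of the 23, Atg14 among them, the day 2 leader was already ahead in 1 of the day 0 libraries. These shares come from the authors' assignment of reads to overlapping transcripts and were not tested. Trim2, a ubiquitin ligase, gave 90.4% and 94.4% of its counts to Trim2-206 on day 2, against 0.00962% and 4.94% on day 0, while its gene level was not called (-0.58 ± 0.28) but was called lower in 5 alternatives, among them the fit of the 4 libraries (-0.64). Coil (coilin), the scaffold of Cajal bodies, gave 98.4% and 99.0% of its counts to Coil-201 on day 2, against 37.0% and 40.4% on day 0. Atg14, an autophagy initiator, gave 94.3% and 92.9% to Atg14-201 on day 2, against 50.8% and 42.6% on day 0, and its level was lower as well (-1.29 ± 0.07). Dnase2a, a lysosomal nuclease, gave 59.0% and 59.6% to a transcript annotated as non-coding on day 2, against 7.52% and 7.82% on day 0, and fell by 1.56 ± 0.09.

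The levels of later days are given as a description of the WT libraries in order of time, with no test. Dnmt3l had 1.51 and 0.904 CPM on day 0, 372 and 421 CPM on day 2, 2.10 and 2.28 CPM on day 4 and 0.434 and 0.458 CPM on day 7, and was high on day 2 alone of the 4 days. Pou3f1 and Lef1 were also highest on day 2, Pou3f1 at 49.7 and 45.6 CPM on day 4 and Lef1 at 38.0 and 32.6 CPM on day 4, while Otx2 went on to 159 and 174 CPM on day 4 and 218 and 176 CPM on day 7. Nanog had 738 and 726 CPM on day 0, 83.6 and 92.9 CPM on day 2, 286 and 363 CPM on day 4 and 196 and 215 CPM on day 7, so that day 2 was its lowest point. Zfp42 came down over all 4 days, to 6.91 and 8.88 CPM on day 4 and 1.01 and 0.603 CPM on day 7. Krt18 and Cdh2 were higher still on later days, with Krt18 at 133 and 109 CPM on day 4 and 317 and 313 CPM on day 7, and Cdh2 at 25.3 and 21.4 CPM on day 4 and 136 and 109 CPM on day 7.

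**Figure D4:**
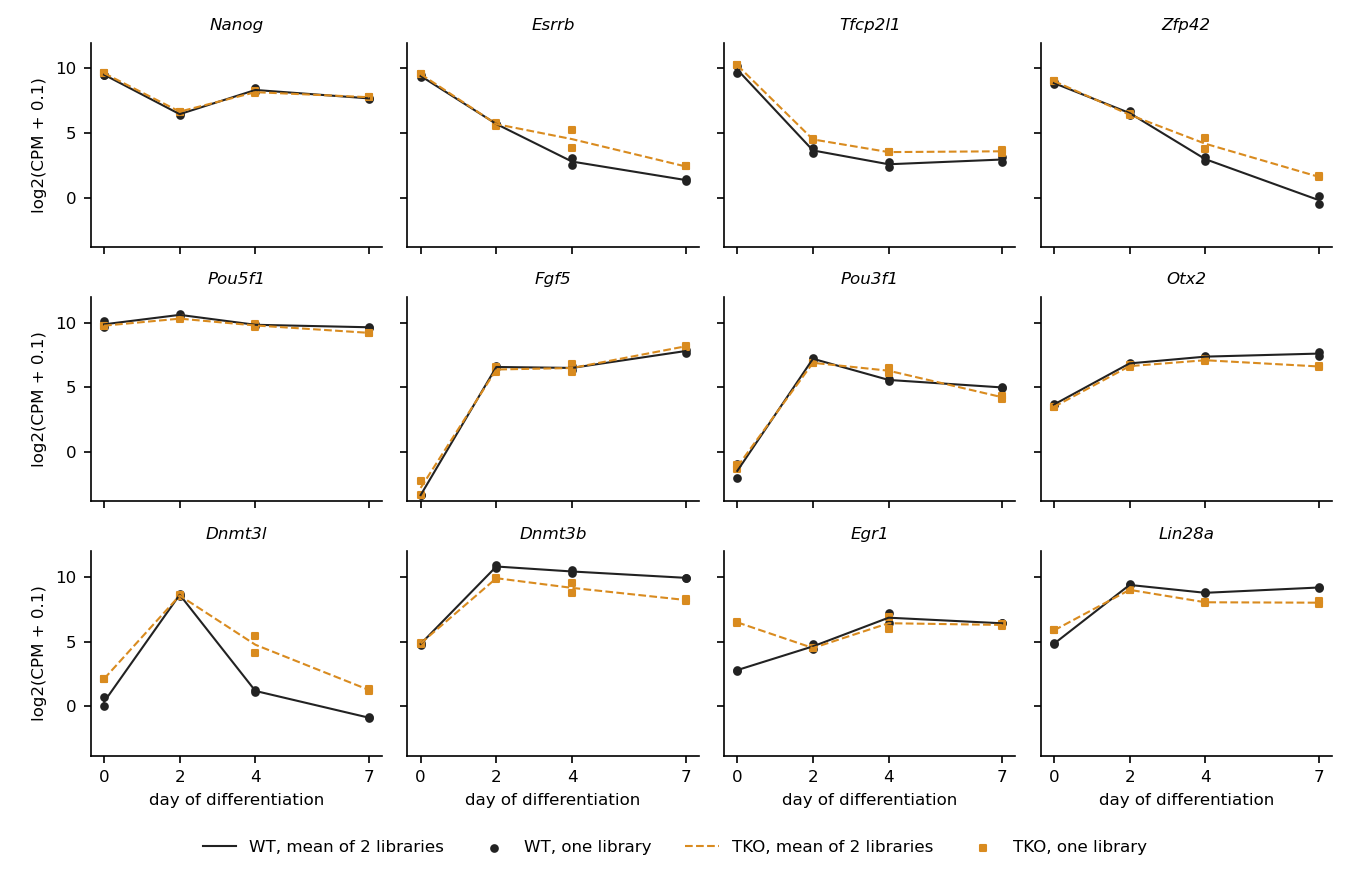
Level of 12 markers, as log2(CPM + 0.1) on the y axis, over days 0, 2, 4 and 7 on the x axis, with WT in black and TKO in orange, points for single libraries and lines through the means of 2 libraries. Nanog has its lowest point on day 2, Dnmt3l its peak, and Egr1 is the marker whose step from day 0 to day 2 runs in opposite directions in the 2 genotypes.

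The step of WT cells was set against the step of TKO cells by testing the difference of the 2 log2 changes in the same fit. The difference was called in 1398 of 18489 genes (7.56%), more positive in WT cells in 333 (1.8%) and more negative in 1065 (5.76%), and in 1177 of the 11373 genes called in the WT step (10.3%). In 253 genes called in both the WT step and the difference, the TKO step had the other sign. The count depended on single libraries. It was 2166 without WT day 0 replicate 1, 906 without WT day 2 replicate 1, 820 without WT day 2 replicate 2, 1904 without WT day 0 replicate 2, 615 without either TKO day 0 replicate, 735 without TKO day 2 replicate 1 and 664 without TKO day 2 replicate 2. The share more positive in WT moved too, at 872 of 2166 without WT day 0 replicate 1, 688 of 1951 in DESeq2 and 1012 of 2661 after a correction for the trend with length.

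Egr1 had 28.3 and 21.7 CPM in WT day 2 libraries against 7.06 and 6.73 CPM in WT day 0 libraries, and 23.0 and 22.3 CPM in TKO day 2 libraries against 88.7 and 91.4 CPM in TKO day 0 libraries. The WT step minus the TKO step was 3.85 ± 0.43 (edgeR adjusted p = 0.000642), with opposite directions in the 2 genotypes. Spry4, another ERK gene, rose more in WT cells, with 91.0 and 91.8 CPM in WT day 2 libraries against 1.54 and 1.56 CPM in WT day 0 libraries, and 91.6 and 97.5 CPM in TKO day 2 libraries against 6.49 and 6.00 CPM in TKO day 0 libraries (difference 1.96 ± 0.18). Etv4 differed by 1.19 ± 0.13 and Lin28a by 1.417 ± 0.11 in the same direction. Day 2 levels of Egr1 and Spry4 lay close together in the 2 genotypes, and day 0 levels were higher in TKO cells.

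Cdkn1a fell further in WT cells, by a difference of -1.15 ± 0.13, with 70.0 and 73.4 CPM in WT day 2 libraries against 359 and 303 CPM in WT day 0 libraries, and 106 and 109 CPM in TKO day 2 libraries against 222 and 226 CPM in TKO day 0 libraries. Lef1 rose less in WT cells (-0.75 ± 0.16), a call lost without TKO day 0 replicate 2 (-0.61) and without TKO day 2 replicate 2 (-0.69). Sall4 differed by 0.68 ± 0.11. Ccnd1 differed by 0.43 ± 0.12 at the threshold (edgeR adjusted p = 0.0446), and its call was lost when any of 6 libraries was left out, with differences from 0.41 to 0.44. Of the naive list no gene had a called difference in edgeR, and of the formative list 3 had one, all more negative in WT cells. These were Lef1 and, looked up after their values were seen, Sox3 and Grhl2.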

How the data were processed

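Bulk messenger RNA was measured in 16 libraries, 2 for each of 4 days in WT and TKO cells. The authors deposited estimated counts, TPM and effective length per transcript, made with kallisto on GRCm38 (mm10), per the submitters' processing notes and the file headers; the kallisto version, annotation and strand setting are not given in the sources used here. Of 119414 transcripts, 116728 (97.8%) matched GENCODE vM21 by identifier and were summed to 35975 genes; unmatched transcripts held 0.946% to 1.05% of counts. Sums were rounded, scaled by TMM, filtered by filterByExpr and fitted over all 16 libraries with edgeR 4.0.16 (quasi-likelihood, robust; R 4.3.3), leaving 8 residual degrees of freedom; SE is the fold change over the root of F. DESeq2 1.42.0 was an alternative, beside other scalings, filters, library sets and length corrections. TPM was used to set levels of genes side by side and to describe some genes on both days, with no test. Counts were also simulated with 1 spread for all genes, few changed genes, all above 5 CPM, and no replicate difference linked to length. There, 98% of 2-fold and 100% of 4-fold changes were recovered (100 genes each), and 12 unchanged genes (0.0691%) were called. The real libraries had many more genes called and a replicate difference linked to length, so these shares do not carry over to them. Replicate libraries differed by more than sampling noise and were each counted.

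Intervals and floors (3 counts over a group) cover counting error only. Named genes are the markers; up to 3 called members of each list per direction with the lowest adjusted p; the 12 largest rises and falls among called protein-coding genes of at least 5 CPM whose libraries did not overlap between days; the 6 largest gains and losses of CPM among those of 2-fold or more; the 10 highest by TPM on day 2; the 8 largest transcript changes; and the 6 largest differences from TKO in each direction. Some of these are not reported here, and any other is said to have been looked up. Members and lists were chosen with earlier results of these data known.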

Additional observations from a re-analysis of the deposited data

Results flagged for a closer look

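A total of 18 genes stood out because the step of WT cells differed from the step of TKO cells by the test of that difference itself, in edgeR's quasi-likelihood fit with Benjamini-Hochberg adjustment. Of these, 7 are markers whose levels were given above, with differences (WT step minus TKO step, log2) of 1.96 for Spry4, 1.19 for Etv4, 1.417 for Lin28a, 0.68 for Sall4, 0.43 for Ccnd1, -0.75 for Lef1 and -1.15 for Cdkn1a. The other 11 are among the 6 largest differences in each direction among protein-coding genes of at least 5 CPM in a group, and they include Egr1 (3.85), also given above.

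More positive in WT cells were the following. Srp54b, a copy of a signal recognition particle subunit that may share reads with near-identical relatives and is uncertain, had 3.39 and 7.11 CPM in WT day 2 libraries against 0.243 and 0.452 CPM in WT day 0 libraries, and 0.0273 and 0.211 CPM in TKO day 2 libraries against 0.626 and 3.90 CPM in TKO day 0 libraries (8.03). Its call was lost without WT day 0 replicate 1 (7.66), without TKO day 0 replicate 2 (6.18), without TKO day 2 replicate 1 (7.29) and with effective length as an offset (5.20). Krt42, a keratin, had 3.15 and 3.37 CPM in WT day 2 libraries against 5.43 and 3.94 CPM in WT day 0 libraries, and 2.68 and 3.21 CPM in TKO day 2 libraries against 28.3 and 28.0 CPM in TKO day 0 libraries (2.73). Pramel6 and Pramel7 belong to a multigene family of embryonic stem cells and oocytes and may share reads. Pramel6 had 0.102 and 0.208 CPM in WT day 2 libraries against 8.52 and 8.06 CPM in WT day 0 libraries, and 0.0820 and 0.0704 CPM in TKO day 2 libraries against 25.7 and 25.7 CPM in TKO day 0 libraries (2.58), and its call was lost without WT day 2 replicate 2 (2.04), without TKO day 2 replicate 1 (2.68) and without TKO day 2 replicate 2 (2.47). Pramel7 had 0.284 and 0.415 CPM in WT day 2 libraries against 1.92 and 1.78 CPM in WT day 0 libraries, and 0.164 and 0.188 CPM in TKO day 2 libraries against 6.58 and 6.96 CPM in TKO day 0 libraries (2.82), a call lost without WT day 2 replicate 2 (2.54) and with effective length as an offset (2.36). For Egr1, Krt42, Pramel6 and Pramel7 the TKO day 0 libraries were the highest of the 8.

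More negative in WT cells were the following. Gng2, a G protein subunit, had 42.7 and 42.2 CPM in WT day 2 libraries against 44.0 and 49.0 CPM in WT day 0 libraries, and 38.0 and 32.3 CPM in TKO day 2 libraries against 4.81 and 4.82 CPM in TKO day 0 libraries (-2.996), so that TKO day 0 was the group with the low level. Tspan2, a tetraspanin, had 2.66 and 2.96 CPM in WT day 2 libraries against 7.54 and 7.49 CPM in WT day 0 libraries, and 5.79 and 6.31 CPM in TKO day 2 libraries against 1.28 and 1.18 CPM in TKO day 0 libraries (-3.72), with opposite directions in the 2 genotypes. Adgrg6, an adhesion receptor coupled to G proteins, had 0.244 and 0.311 CPM in WT day 2 libraries against 17.9 and 22.5 CPM in WT day 0 libraries, and 0.574 and 0.446 CPM in TKO day 2 libraries against 3.98 and 4.01 CPM in TKO day 0 libraries (-3.21). Tlx2, a homeobox gene, had 0.0203 and 0.0778 CPM in WT day 2 libraries against 19.2 and 13.1 CPM in WT day 0 libraries, and 0.683 and 0.305 CPM in TKO day 2 libraries against 11.5 and 11.5 CPM in TKO day 0 libraries (-3.81). Serpina3m, a protease inhibitor of a multigene cluster, had 0.345 and 0.285 CPM in WT day 2 libraries against 7.41 and 6.33 CPM in WT day 0 libraries, and 0.355 and 0.164 CPM in TKO day 2 libraries against 0.285 and 0.144 CPM in TKO day 0 libraries (-4.66), a call lost without TKO day 2 replicate 1 (-4.04). Prss50, a testis protease, had 16.6 and 18.2 CPM in WT day 2 libraries against 0.811 and 0.578 CPM in WT day 0 libraries, and 21.8 and 23.5 CPM in TKO day 2 libraries against 0.0854 and 0.0866 CPM in TKO day 0 libraries (-3.35), a call lost without TKO day 0 replicate 1 (-3.34) and without TKO day 0 replicate 2 (-3.36).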

How the results depend on the processing

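The 11373 genes called between WT day 2 and WT day 0 stayed between 9119 and 12082 over scaling by RLE, DESeq2 (11091, of which 5811 higher), no filter, a filter of 5 CPM, effective length as an offset, protein-coding genes only, the 8 WT libraries and the 8 libraries of days 0 and 2, and a correction for the trend of level with length that was added after seeing the data. Leaving out 1 library gave 10212 to 11197 called, 5415 to 5970 higher and 4607 to 5410 lower. The fit of the 4 libraries alone called 8885. Replicate numbers were not taken to pair the libraries, since 3 of 28 pairs of groups had deviations correlated over 0.1 and WT day 2 and WT day 0 had -0.743. The replicate difference moved with length in opposite directions in these 2 groups, and its part in that correlation was not tested. With the replicate number as a block the step had 11140 calls, or 7414 in the fit of the 4 libraries (3567 higher), and the difference between genotypes had 1185. A crossed pairing of the 4 libraries, added after seeing the data, gave 12022 calls.

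The difference between the WT and TKO steps depended more on the processing. Its 1398 calls, 333 more positive and 1065 more negative, were 863 with effective length as an offset (164 and 699) and 2661 after the length-trend correction (1012 and 1649), and DESeq2 called 688 more positive. Leaving out 1 library gave 615 to 2166 calls, 99 to 872 more positive and 510 to 1294 more negative. The cause was not tested.

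Among named genes, 13 values of the WT step turned in sign. With effective length as an offset, Gng2 was 0.42, Pakap 0.24 and Hsd17b14 0.092, and the length-trend correction gave Rplp1 0.030. Leaving out 1 library gave -1.44 to 1.45 for Pakap, -0.44 to 0.0055 for mt-Atp8, -0.27 to 0.22 for Rplp1, -0.13 to 0.021 for Pik3cd and -0.20 to 0.41 for Mrpl14. Rps12-ps3, a pseudogene whose reads may come from its parent, gave 0 to 11.6, values that are no estimates since it had no count on day 0. In a further 102 cases a call was lost, in 21 one was gained and in 4974 neither changed. Etv5 lost its call in the fit of the 4 libraries (0.32), as did Pou5f1 (0.67), Ccnd1 (0.56), Nkd1 (0.62) and mt-Nd5 (-0.68) when that fit had the replicate block. The medians of the lists for cadherins, cell cycle and one-carbon metabolism, all near 0, changed sign without WT day 0 replicate 1, and those of endoderm and trophoblast in some alternatives. Genes under about 1 CPM rest on few counts, and 2 libraries a group limit every SE.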
